A study of Mus musculus with 16 samples.

Results

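Complement-positive macrophages of the rejecting mouse kidney allograft were defined as CD45+ cells with at least 3 unique molecular identifiers (UMIs, each marking 1 captured mRNA molecule) summed over C1qa, C1qb, and C1qc, no UMI of Cd3e, Cd3d, Cd3g, or Cd79a, and fewer than 2 UMIs of Arg1. They were chosen by these measured values, and the rule was met by 1920 of the 11948 CD45+ cells of the rejecting kidneys, out of 291325 CD45+ barcodes in the whole series. The study followed CD45+ cells and CD8+ T cells of accepted and rejecting kidney allografts, of recipient spleens, and of naive spleen by droplet scRNA-seq. The rejecting grafts were kidneys of WT C57BL/6J (B6) mice taken 1 week after transplantation into DBA/2J recipients, and the naive spleens came from WT C57BL/6J mice without a transplant. All mice were male, the sorted cells were viable and CD45+, and kidneys were digested with collagenase whereas spleens were ground and treated to lyse red cells. The label gives C57BL/6J as the strain of both matrices, which is the donor strain of the graft, and graft and recipient macrophages were not told apart here.

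C1q is the recognition unit of the classical complement pathway. Its A, B, and C chains are encoded by C1qa, C1qb, and C1qc, and in most tissues macrophages rather than hepatocytes are its main source. C1q binds antibody on cells and also dying cells, and macrophages that make it typically also carry Apoe, a lipid carrier, Ms4a7, a membrane protein of macrophages, and Mertk and Axl, receptors through which dying cells are engulfed.

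The upstream sequences of 2 of the genes that define these cells are shown because C1qb and C1qc lie side by side on chromosome 4, together with that of Cd72, a surface receptor that was among the genes with the largest fold in the comparisons below. Each sequence is the 250 bases before a RefSeq start on GRCm38.p6, all on the minus strand, written 5′ to 3′ in the direction of the gene. The capitals mark GAGGAA, the core letters bound by PU.1, a transcription factor of myeloid cells, or its reverse complement.
C1qb, chr4:136886201-136886450: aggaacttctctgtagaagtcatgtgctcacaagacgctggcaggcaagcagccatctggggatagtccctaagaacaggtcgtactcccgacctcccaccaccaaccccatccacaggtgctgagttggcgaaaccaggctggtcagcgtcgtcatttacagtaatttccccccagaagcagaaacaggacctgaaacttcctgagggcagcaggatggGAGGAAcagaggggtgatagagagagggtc
C1qc, chr4:136892915-136893164: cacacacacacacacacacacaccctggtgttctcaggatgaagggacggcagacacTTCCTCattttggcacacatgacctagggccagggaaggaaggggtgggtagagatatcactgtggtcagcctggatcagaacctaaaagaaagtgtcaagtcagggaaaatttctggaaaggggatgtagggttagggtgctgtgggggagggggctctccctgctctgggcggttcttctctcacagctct
Cd72, chr4:43454627-43454876: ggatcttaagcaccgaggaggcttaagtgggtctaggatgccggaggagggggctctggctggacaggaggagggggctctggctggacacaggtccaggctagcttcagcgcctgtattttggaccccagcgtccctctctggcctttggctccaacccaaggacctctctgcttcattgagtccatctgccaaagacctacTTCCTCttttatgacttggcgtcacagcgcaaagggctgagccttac
The match began at position -30 in C1qb, at -193 on the opposite strand in C1qc, and at -47 on the opposite strand in Cd72. On either strand GAGGAA was present in 7639 of 32851 promoters of this length (23.3%), so a match is a description of the letters and not of binding. The promoters of Ccl8 and 2 of the 3 entries of Apoe also held it, and those of Mertk, Ms4a7, and Cxcl9 did not hold it in this window.

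The 2 rejecting kidney libraries differed, and their values are therefore given separately. Library 2 held 5377 cells and library 3 held 6571 cells, with 13437087 and 19552578 UMIs in total. The rule was met by 1206 cells of library 2 (22.4%, 95% Clopper-Pearson interval 21.3 to 23.6) and by 714 cells of library 3 (10.9%), a mean of 16.6% ± 8.18 (SD, n = 2). Of the myeloid cells, that is, of the members and all other cells without a CD3 UMI that had a UMI of Lyz2 or Csf1r, they made up 41.5% (1206 of 2904) in library 2 and 16.2% (714 of 4417) in library 3. The share was thus higher in library 2 on both denominators, and with 2 libraries this spread has no further check. The intervals cover counting error only. The libraries shared 13 barcodes, and no shared barcode was a member in both.

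The summed C1q count had a median of 13 UMIs and a maximum of 118 UMIs, and 1544 members (80.4%) had UMIs of all 3 genes. C1qa stood at 2195 and 2134 UMIs per 1000000 UMIs (CPM) in the members of libraries 2 and 3 and at 129 and 39.0 CPM in the other myeloid cells, C1qb at 1814 and 1786 CPM against 108 and 30.6 CPM, and C1qc at 1463 and 1175 CPM against 97.0 and 22.0 CPM. These values follow from the rule. Counts ran on across its limit without a gap, and 1653 of the 1920 members had at least 5 C1q UMIs. Just inside it, the myeloid cells with 3 C1q UMIs (79 and 51 cells in libraries 2 and 3) had 4631 and 1173 CPM of Apoe, 209 and 169 CPM of Ms4a7, and 225 and 552 CPM of Ly6c2. Just outside it, the cells with 2 UMIs (119 and 77 cells) had 4438 and 862 CPM of Apoe, 188 and 77.4 CPM of Ms4a7, and 282 and 750 CPM of Ly6c2.

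The macrophage label was checked against markers that the rule did not use. After each cell was thinned to 1000 UMIs, Apoe was detected in 86.1% and 36.3% of members in libraries 2 and 3, in 54.7% and 21.1% of other myeloid cells, and in 28.1% and 6.54% of cells with a CD3 UMI, a comparison for free RNA that also holds cells with high C1q counts (median depths before thinning 2934, 2163, and 2372 UMIs). The levels were given by library because library 2 supplied 1206 of the 1920 members but 1698 of the 5401 other myeloid cells. Ms4a7 was detected in 25.3% and 14.8% of members, 6.60% and 3.89% of other myeloid cells, and 4.17% and 1.69% of CD3 cells, and Mertk in 21.8% and 6.16%, 7.77% and 2.73%, and 3.65% and 1.47%. Adgre1, which encodes F4/80, was detected in 19.6% and 14.4%, 11.9% and 11.7%, and 4.65% and 2.67%. Without thinning, these shares in members were 93.0% and 49.6% for Apoe, 44.4% and 30.1% for Ms4a7, 41.4% and 17.9% for Mertk, and 42.5% and 37.1% for Adgre1. The markers therefore stood above the level in CD3 cells in both libraries. Lyve1 and Cd163, markers of several resident macrophages, had no UMI in any of the 1920 members even without thinning, which allows a share of cells with a UMI of up to 0.156%. Timd4 and Folr2, further genes of resident macrophages, had a UMI in 0.260% and 0.313% of members without thinning. Of 19 tested genes of tissue macrophages, 11 were higher in members than in other myeloid cells and 2 were lower, as given below. Of 24 transcription factors of macrophages, 3 were higher and 6 were lower. Cd81 and Cx3cr1 were higher, and Cx3cr1 is also a marker of nonclassical monocytes. Whether the members were resident in the kidney was not tested. Of the 3943 cells with a CD3 UMI, 11.5% met the C1q minimum and were left out by the rule, and their median of 4511 UMIs was higher than that of all CD3 cells. Of them, 38.2% had a high doublet score, compared with 2.86% of members.

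Genes of other lineages were also measured in the members. The 14 T and NK cell genes summed to 83.6 and 59.7 CPM in the members of libraries 2 and 3 and to 245 and 208 CPM in the other myeloid cells, and all 14 had a UMI in each. The 7 B cell genes summed to 28.5 and 38.3 CPM in members against 93.8 and 172 CPM, with Jchain at 0 in both libraries of members. The 11 dendritic cell genes summed to 118 and 130 CPM against 105 and 121 CPM, with Cd209a at 0 in the members, and the 16 genes of kidney parenchyma to 15.97 and 12.5 CPM against 14.2 and 10.9 CPM, with Slc12a1, Aqp1, Cdh16, and Miox at 0 in the members. The members had been picked for no Cd79a UMI, which was not asked of the other myeloid cells (Cd79a at 9.13 and 1.57 CPM), so the B cell values are partly set by the rule. Of the 7 dendritic cell genes that could be tested, 1 was higher and 1 was lower, with a median of -1.17, and the difference was positive for 3 in library 2 and for 2 in library 3. A part of these transcripts in the differences below was not tested.

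Next, the members were compared with the 5401 other myeloid cells of the same libraries (1698 and 3703 cells), on UMIs summed per library. A gene was called at an adjusted p under 0.05 by the quasi-likelihood test of edgeR (Benjamini-Hochberg) with the library as a block. Fold changes are on the log2 scale with their SE. The SE was worked out from the fold change and the test statistic, so it restates the p-value and is no separate measure of spread. Of the 10968 genes tested, 863 were higher (7.87%) and 839 were lower (7.65%) in the members, and the median over all genes was 0.04. The members were higher in 11 of 19 genes of tissue macrophages and lower in 2, higher in nearly all genes of the cell cycle, and lower in nearly all genes of monocytes. Genes were measured in the cells that the rule picked, and 4 sums leave 1 residual degree of freedom per gene. The test therefore draws its spread largely from all genes together. At most, the p-values cover how the difference within a library varied between these libraries. They do not cover the spread in level between libraries, which the block takes out. The same limits hold for the comparisons with Arg1-positive cells and with monocytes below. Without the block, 2 genes were called, and DESeq2 called 550.

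The markers of the cell type were higher in both libraries. Apoe stood at 6513 CPM in members and 2749 CPM in other myeloid cells of library 2, and at 999 CPM against 527 CPM in library 3, a log2 difference of 1.09 ± 0.08 (adjusted p = 2.3e-06, edgeR). Members of library 3 were thus below the other myeloid cells of library 2 in Apoe, so that the groups overlapped across libraries although the difference was present within each. Ms4a7 stood at 368 and 214 CPM in members against 120 and 66.1 CPM (1.66 ± 0.10). Of the 19 tested genes of the list of tissue macrophage genes, 11 were higher and 2 were lower, with a median of 0.36. With DESeq2 5 of the 19 were higher, and after thinning 8 of 16, with 2 lower in each case. Cd72, a receptor that also dampens B cell signaling, stood at 168 and 314 CPM in members and at 49.2 and 55.1 CPM in other cells (2.19 ± 0.15). Cd81, a tetraspanin, stood at 97.9 and 122 CPM against 23.1 and 24.8 CPM (2.20 ± 0.13), and Cx3cr1, the fractalkine receptor, at 187 and 254 CPM against 120 and 103 CPM (0.98 ± 0.14). Cd72 and Cd81 were higher in the members of each library, where each group has 1 summed value and no spread. Cadm1, an adhesion molecule, was higher by 1.99 and Itga9, an integrin chain, by 1.69.

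**Figure D1:**
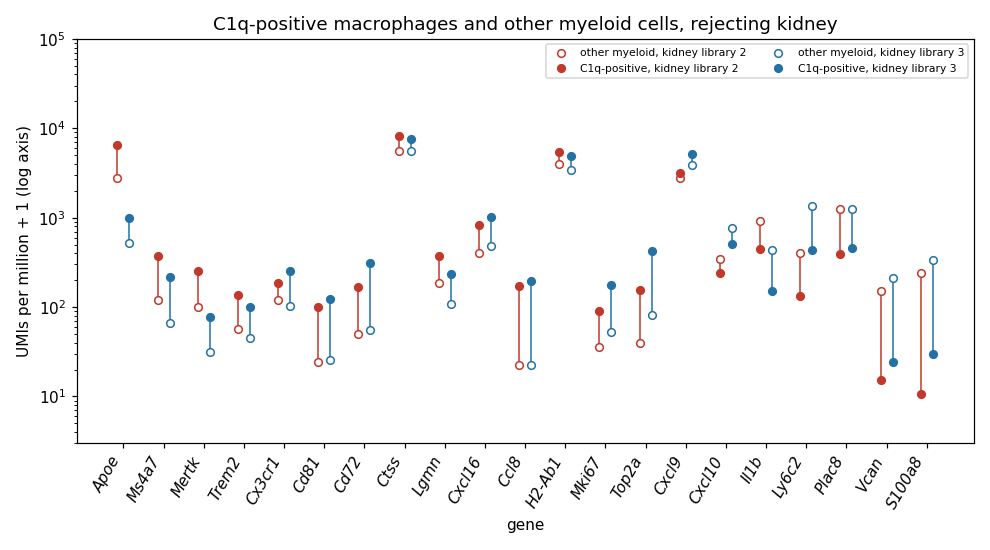
Levels of 21 genes in CPM plus 1 (log axis) in C1q-positive macrophages (filled points) and other myeloid cells (open points) of the 2 rejecting kidney libraries, each pair joined by a line within its library. Apoe, Ms4a7, Cd72, and Ccl8 were higher in the C1q-positive cells of both libraries and Ly6c2, Vcan, and S100a8 were lower.

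Of the 14 tested genes of efferocytosis and scavenger receptors, 6 were higher and none was lower (median 0.35), and DESeq2 called 3. The difference was positive in 11 of the 14 in library 2 and in 8 in library 3. Mertk stood at 253 and 76.7 CPM in members against 98.6 and 30.6 CPM (1.35 ± 0.11), and Axl at 159 and 147 CPM against 87.3 and 52.8 CPM (1.17 ± 0.14). Among 23 genes of lipid handling, 6 were higher and 2 were lower (median 0.22), and with DESeq2 5 were higher and 1 was lower. Over all genes, 7.87% were higher and 7.65% were lower, so the lower genes of this list were near that share. After thinning, 5 of 22 were higher and 4 were lower (median 0.11). The difference was positive in 15 of the 23 in library 2 and in 12 in library 3. Trem2, a lipid-sensing receptor, stood at 135 and 99.3 CPM against 55.6 and 44.4 CPM (1.22 ± 0.11). Abca1, which exports cholesterol, and Pltp, a phospholipid transfer protein, were higher by 0.85 and 0.97. Of 24 lysosomal genes, 12 were higher and none was lower (median 0.31), among them the proteases Ctss (8198 and 7680 CPM against 5563 and 5610 CPM, 0.51 ± 0.05) and Lgmn (1.05 ± 0.09), and Grn (0.79) and Cd63 (1.69). The difference of the lysosomal genes was positive in 23 of 24 in library 2 and in 19 of 24 in library 3, and DESeq2 called 6 of them.

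The other genes of complement did not move as a group. Of 17 tested genes besides C1q, 4 were higher and 4 were lower, with a median of 0.01. Over all genes, 7.87% were higher and 7.65% were lower. C3ar1, the receptor for C3a, was higher (178 and 175 CPM against 105 and 103 CPM, 0.76 ± 0.10), as were Cfp, which encodes properdin and stabilizes the alternative pathway convertase (0.73), and Itgax, a chain of complement receptor 4 (0.81). Cfb, a protease of the alternative pathway, was lower by -0.39 ± 0.10 and the C5a receptor gene C5ar1 by -0.58 ± 0.15.

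Genes of monocytes were lower almost throughout. Of 20 genes, 19 were lower and none was higher, with a median of -1.59, and 16 were called lower with DESeq2. Within library 2 none of the 20 and within library 3 only 1 was higher in the members. Ly6c2, which marks inflammatory monocytes, stood at 133 and 436 CPM in members against 400 and 1351 CPM in other myeloid cells (-1.61 ± 0.08), and Plac8 at 392.03 and 456 CPM against 1252 and 1256 CPM (-1.57 ± 0.08). Vcan, a proteoglycan of monocytes, stood at 14.4 and 23.4 CPM against 150 and 212 CPM (-3.27 ± 0.13). S100a8 (9.58 and 29.1 CPM against 237 and 331 CPM, -3.98 ± 0.19) and S100a9 (4.52 and 6.05 CPM against 137 and 111 CPM, -4.60 ± 0.19), the calprotectin subunits of neutrophils and monocytes, had the largest falls among genes named by the rule. The other genes with the largest falls were Plcb1, Hp, F13a1, F10, S100a4, Arhgap26, Adgre4, Clec4e, and Upp1, at -2.95 to -1.72. Of the 12 neutrophil and S100 genes, Ly6g was at 0 in members of both libraries. The list summed to 1303 and 1709 CPM in members and to 3371 and 4169 CPM in other myeloid cells, and its part in these differences was not tested. The other myeloid cells were defined by a UMI of Lyz2 or Csf1r alone and included 1887 cells with at least 3 Ly6c2 UMIs, so they hold several cell types.

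Cell cycle genes were the list with the highest median. Of 14 genes, 13 were higher in members and none was lower, with a median of 1.86, and 11 were called higher with DESeq2. These genes were uneven among the members: when the members were clustered, Mki67 stood at 809 CPM in 1 cluster of 146 cells (7.60% of members) and at 32.2 to 110 CPM in the other clusters. The difference was positive for 13 of the 14 within library 2 and for 14 within library 3. Top2a, the topoisomerase of dividing cells, stood at 153 and 421 CPM in members against 38.7 and 80.3 CPM (2.23 ± 0.12). Mki67, the proliferation marker, stood at 88.4 and 177 CPM against 34.4 and 51.5 CPM (1.61 ± 0.13), and Hist1h1b and Lig1, a histone and the ligase of DNA replication, were higher by 2.03 and 1.55. The rule counts UMIs without regard to depth, and members had a median of 2934 UMIs compared with 2163 UMIs in other myeloid cells. When the rule and the counts were taken after thinning to 1000 UMIs, 11 of the 12 tested genes were called higher (median 1.71). In thinned counts Mki67 was detected in 6.67% of members, 2.89% of other myeloid cells, and 20.5% of CD3 cells. For this detection only the counts were thinned, and the cells were those picked by the unthinned rule.

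**Figure D2:**
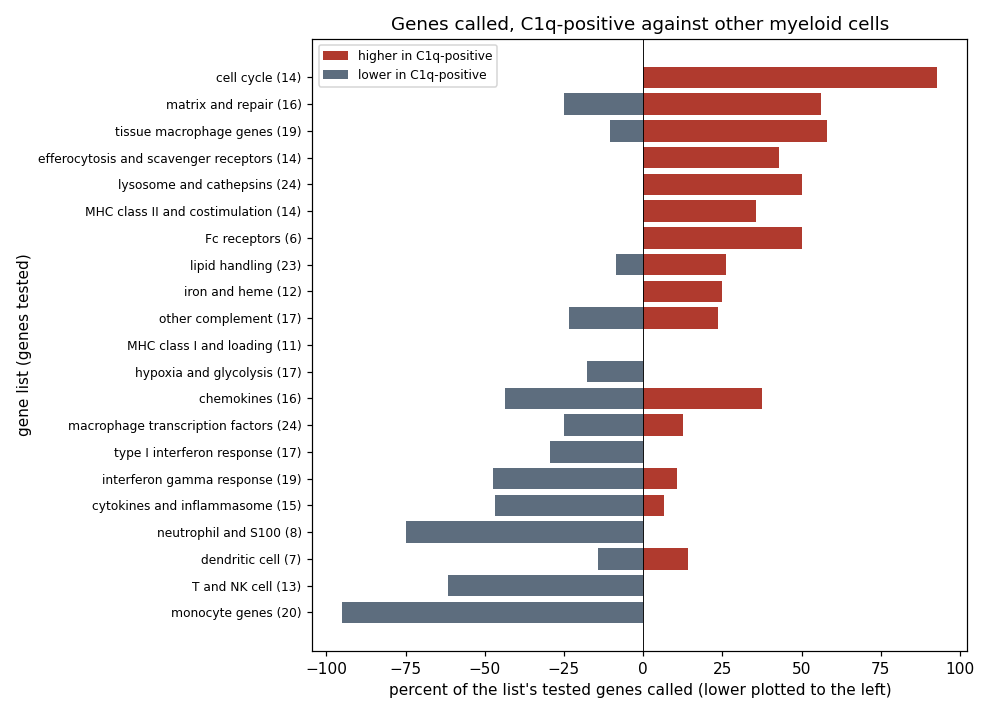
Percent of the tested genes of each list (number tested in parentheses) called higher (right) or lower (left) in C1q-positive macrophages than in other myeloid cells. Lists with few tested genes are not shown, and the lists were chosen with earlier results of these data known. Monocyte genes were called lower in 19 of 20, and cell cycle genes higher in 13 of 14, compared with 7.65% lower and 7.87% higher over all genes.

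Chemokines and cytokines split by gene. Of 16 chemokines, 6 were higher and 7 were lower. Ccl8, a CC chemokine made by macrophages, had the largest rise of the genes named by the rule, at 170 and 195 CPM in members against 21.5 and 21.4 CPM (3.10 ± 0.12). Cxcl16, the ligand of CXCR6, stood at 825 and 1026 CPM against 404 and 479 CPM (1.07 ± 0.08), and Ccl12, a chemokine that recruits monocytes, at 32.2 and 201 CPM against 9.40 and 75.6 CPM (1.49 ± 0.13). These 3 chemokines were higher in each library. Cxcl9, which attracts activated T cells through CXCR3, was abundant in both groups, at 3144 and 5106 CPM in members and 2792 and 3855 CPM in other cells (0.29 ± 0.07), whereas Cxcl10, a ligand of the same receptor, was lower (-0.57 ± 0.08). Of 15 cytokine and inflammasome genes, 1 was higher and 7 were lower (median -0.34). Il1b stood at 447 and 150 CPM in members against 911 and 437 CPM (-1.26 ± 0.11), and Tnf at 49.8 and 52.9 CPM against 84.6 and 88.1 CPM (-0.75 ± 0.12). The gene that was higher was Tnfsf13b, which encodes the B cell survival factor BAFF (53.0 and 70.2 CPM against 23.1 and 26.3 CPM, 1.32 ± 0.14).

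The lists of antigen presentation and of the interferon response differed in direction. Of 14 genes of MHC class II and costimulation, 5 were higher and none was lower (median 0.26). The class II chain H2-Ab1 stood at 5430 and 4914 CPM against 3976 and 3441 CPM (0.48 ± 0.05), H2-Eb1 was higher by 0.56, and Cd74, the invariant chain, by 0.35. None of the 11 MHC class I genes was called by edgeR or by DESeq2, 0 had an unadjusted p under 0.05 in edgeR, and their median was -0.03. Reads were mapped to a B6 reference, and H2 genes differ between the strains, and the effect of this on the levels was not tested. Of 19 genes of the interferon gamma response, 2 were higher and 9 were lower (median -0.30), and with DESeq2 none was higher and 7 were lower. Gbp2, Gbp5, and Iigp1, GTPases induced by interferon gamma, were lower by -0.50, -0.72, and -0.41, with Iigp1 at 1131 and 1667 CPM in members. Of 17 genes of the type I interferon response, 5 were lower and none was higher. The difference was positive for 7 of these 17 in library 2 and for 1 in library 3. Of 24 transcription factors of macrophages, 3 were higher and 6 lower, of 12 iron and heme genes 3 were higher, of 6 Fc receptors 3 were higher, and of 17 hypoxia and glycolysis genes 3 were lower, with none in the other direction for the last 3 lists. In libraries 2 and 3, the difference was positive for 11 and 5 of the transcription factors, 11 and 5 of the iron and heme genes, and 6 and 3 of the Fc receptors. Over all genes, 7.87% were higher and 7.65% were lower. Growth factor and matrix genes were mixed, with 9 of 16 higher and 4 lower. Pdgfb, a growth factor of mesenchymal cells, stood at 68.1 and 75.9 CPM in members against 24.99 and 14.5 CPM (1.95 ± 0.20), and Mmp8, a collagenase of neutrophils, was lower (3.19 and 2.02 CPM against 30.1 and 33.5 CPM).

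To describe how these genes changed with the amount of C1q, the myeloid cells were placed in bins of their C1q count after thinning to 1000 UMIs. The genes and bins were chosen after their values were seen, and no test was made. From cells without a C1q UMI to cells with 12 or more, Apoe went from 2556 to 9993 CPM in library 2 and from 503 to 1430 CPM in library 3. Ms4a7 went from 107 to 615 CPM and from 61.6 to 418 CPM. Ly6c2 went from 418 to 62.5 CPM in library 2 and from 1365 to 182 CPM in library 3, and Plac8 from 1312 to 283 CPM and from 1285 to 263 CPM. Opposite courses of macrophage and monocyte genes were thus seen in both libraries, although the levels of Apoe and Ly6c2 differed between them at every C1q level. Mertk rose early in library 2, from 95.4 CPM without a C1q UMI to 267 CPM at 2 UMIs, and stood at 270 CPM in the highest bin. In library 3 it went from 28.1 CPM to 89.3 CPM at 2 UMIs and stood at 63.5 CPM in the highest bin. The highest bin held 99 cells of library 2 and 63 cells of library 3.

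**Figure D3:**
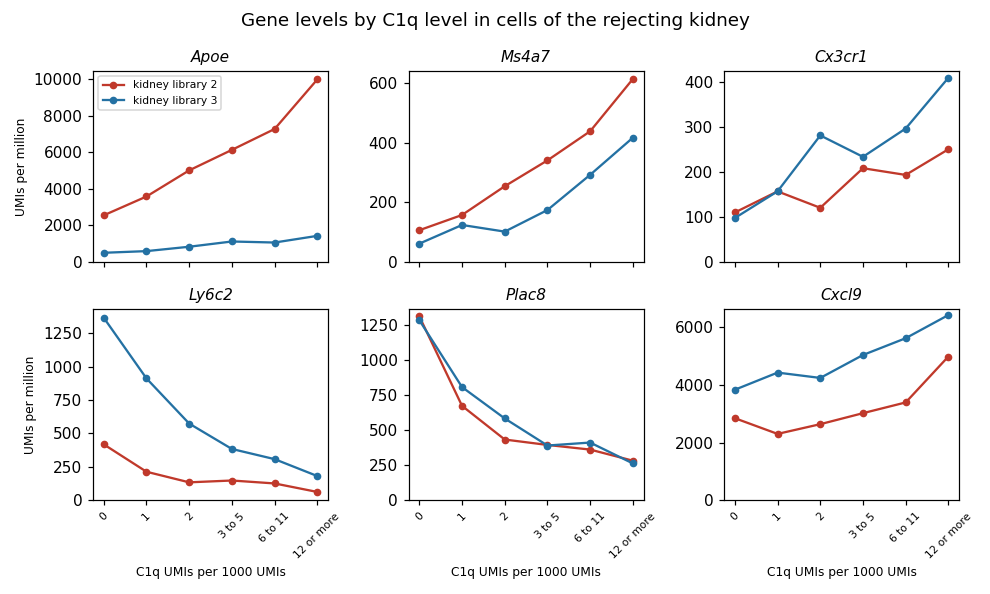
Gene levels (CPM) in myeloid cells of the rejecting kidney by C1q UMIs per 1000 UMIs of the cell, 1 line for each library. Apoe and Ms4a7 were highest and Ly6c2 and Plac8 lowest in the bin of 12 or more C1q UMIs in both libraries.

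The members were then compared with 136 Arg1-positive myeloid cells (44 and 92 cells), which had at least 2 Arg1 UMIs and did not have to meet the C1q minimum. Arg1 encodes arginase, and 56 of all cells with at least 3 C1q UMIs were outside the rule for Arg1 alone. C1qa stood at 1528 and 498 CPM in the Arg1-positive cells against 2195 and 2134 CPM in members. Ly6c2 stood at 179 and 1093 CPM against 133 and 436 CPM. The part of the C1q and Ly6c2 levels in the differences was not tested. Of 9045 genes tested, 61 were higher (0.674%) and 92 were lower (1.02%) in the members. The list with the most genes lower in members was that of hypoxia and glycolysis. DESeq2 called 17 genes, the test without the block called 1, and thinned counts gave 35.

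Of 17 genes of hypoxia and glycolysis, 12 were lower in members and none was higher, with a median of -0.74 compared with 0.05 over all genes. With DESeq2 and after thinning, 3 were lower in each case. Egln3, an oxygen sensor, stood at 7.19 and 2.02 CPM in members against 92.8 and 20.9 CPM (-3.58 ± 0.60), and Pgk1, a glycolytic enzyme, at 295 and 332 CPM against 687 and 575 CPM (-0.99 ± 0.16). The Arg1-positive cells held 161642 and 335673 UMIs in total in libraries 2 and 3, so the level of Egln3 there rests on few UMIs. Bnip3 and Gapdh were lower by -1.20 and -0.75. Of 13 genes of efferocytosis and scavenger receptors, 4 were lower and 1 was higher (median 0.07), and DESeq2 called 1, which was lower. Mrc1, the mannose receptor, stood at 64.4 and 12.1 CPM in members against 260 and 65.5 CPM (-2.15 ± 0.28), and Msr1 was lower by -0.70. Axl was the gene that was higher, at 159 and 147 CPM against 118 and 62.6 CPM (0.87 ± 0.26). Cd36, a fatty acid receptor of the lipid list, was lower by -1.44. Chil3, Pde4d, and Fn1, a chitinase-like protein, a phosphodiesterase, and fibronectin, had the largest falls among genes of at least 100 CPM, at -2.86, -2.73, and -2.58. Of these, Chil3 was 14.9 and 16.6 CPM in members against 278 and 20.9 CPM, so its difference was mainly in library 2. Its log2 ratios were -4.13 and -0.32 in libraries 2 and 3, a spread that its SE of 0.37 does not hold. The SE and p-values of this comparison therefore say little about a gene's own spread between libraries. Of 13 genes of MHC class II and costimulation, 4 were higher and 1 was lower, and DESeq2 called none. Ciita, the master regulator of MHC class II, stood at 427 and 525 CPM in members against 192 and 268 CPM (1.04 ± 0.18), and H2-Ab1 was higher by 0.49. Of 14 cell cycle genes, 5 were higher and none was lower, whereas DESeq2 called none of the 14 and thinned counts none of 6. C3ar1 was lower by -0.65 and C3 higher by 0.57, close to the threshold (adjusted p = 0.0497 and 0.0476, edgeR). The markers Apoe and Ms4a7 did not separate the groups firmly. Apoe stood at 6513 and 999 CPM in members against 9670 and 1212 CPM (-0.43 ± 0.12, adjusted p = 0.032) and Ms4a7 at 368 and 214 CPM against 569 and 197 CPM (-0.27 ± 0.18, adjusted p = 0.72). After thinning, the direction of both turned, with 0.16 for Apoe and 0.55 for Ms4a7, and in library 3 alone Ms4a7 was higher in the members.

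Against the 1887 Ly6c2-positive monocytes (191 and 1696 cells with at least 3 Ly6c2 UMIs and fewer than 3 C1q UMIs), the members were higher in 11 of 18 genes of tissue macrophages and lower in 3, higher in nearly all genes of the cell cycle, and lower in 16 of 19 genes of monocytes. The monocytes had been picked by a monocyte gene, and 1 gene of that list, Spn, was higher in the members (1.09 ± 0.19). Of 10537 genes, 1198 were higher (11.4%) and 750 were lower (7.12%) in members, and with TMM factors 865 were higher and 1043 lower. The median over all genes was 0.13 with plain totals and 0.02 with TMM factors. DESeq2 called 436 genes, thinned counts gave 725, and 83 were called without the block. Of the longest of 4 groups of genes by genomic span, 18.2% were higher in members, compared with 7.99% of the shortest, and the part of gene span here was not tested. Ms4a7 stood at 368 and 214 CPM in members against 41.2 and 52.2 CPM in monocytes (2.34 ± 0.16) and Apoe at 6513 and 999 CPM against 1605 and 317 CPM (1.84 ± 0.08). Mertk stood at 253 and 76.7 CPM against 30.9 and 26.9 CPM (1.96 ± 0.18). The log2 ratios of Mertk were 3.00 and 1.48 in libraries 2 and 3, a spread that this SE does not hold. Ccl8, Cd72, and Cd81 were low in the monocytes, with Ccl8 at 2.06 and 12.6 CPM (4.12 ± 0.21), Cd72 at 8.24 and 23.1 CPM (3.82 ± 0.19), and Cd81 at 2.06 and 9.77 CPM (3.76 ± 0.24). Cell cycle genes were higher in 13 of 14, with a median of 2.50. S100a9 and S100a8 were lower by -5.91 and -5.24. Genes of the interferon gamma and type I interferon responses were lower in 11 of 19 and 11 of 17, and none was higher, among them Gbp2 (-0.82 ± 0.09) and Isg15 (-1.18 ± 0.14).

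The members were not uniform. Leiden clustering of the 1920 cells gave 6 groups, described here by number and leading genes without a test, since the clusters were made from the same genes. Cluster 3 (528 cells) was led by Cxcl2, Klf4, Fosb, and Vegfa, with Il1b at 874 CPM compared with 95 CPM in the rest. It held 37.6% of the members of library 2 and 10.4% of those of library 3. Cluster 1 (421 cells) was led by Gm15056, Saa3, Ly6c2, and Ly6i, with 6165 CPM of Cxcl9 and 1481 CPM of Apoe, and held 4.98% of the members of library 2 and 50.6% of those of library 3. Cluster 0 (249 cells), led by Adgre4, Hes1, and Wfdc17, held 234 cells of library 2 and 15 cells of library 3. Cluster 2 (516 cells) was led by Frmpd4 and Kynu. Clusters 0, 1, and 3 were each mostly of 1 library, cluster 3 with 454 cells of library 2 and 74 of library 3, and library and state of the cells cannot be told apart there.
Cluster 4 (146 cells) was led by Hist1h1b, Top2a, Hist1h3c, and Nusap1, genes of dividing cells, with 809 CPM of Mki67 compared with 32.2 to 110 CPM in the other clusters. It held 51 cells of library 2 and 95 cells of library 3 and the deepest cells, with a median of 4428 UMIs. Cluster 5 (60 cells) was led by Gzma, Tox, Skap1, and Il2rb, genes of T and NK cells, although its cells had no CD3 UMI, and its C1qa level was 2869 CPM. Lyve1 and Cd163 were at 0 in all 6 clusters. At other resolutions there were 3 and 10 clusters.

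**Figure D4:**
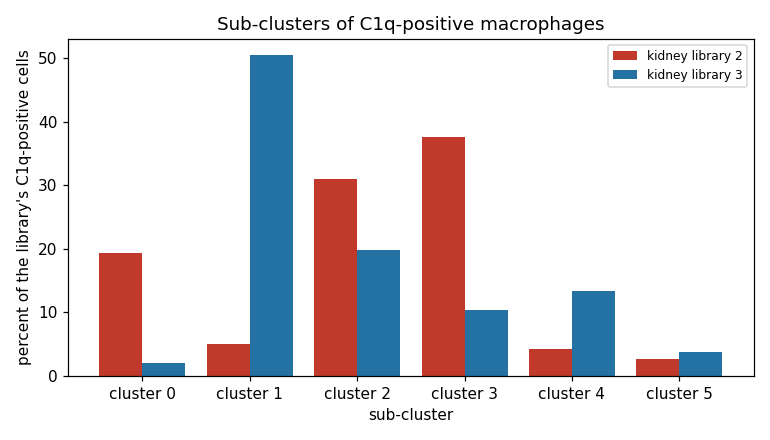
Percent of each library's C1q-positive macrophages in each of the 6 sub-clusters, with 1 bar for each library. Cluster 1 held 50.6% of library 3 and 4.98% of library 2, and cluster 3 held 37.6% of library 2 and 10.4% of library 3.

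Finally, the same rule was applied to the naive spleen, where it was met by 304 of 47060 CD45+ cells (144, 35, 61, 32, and 32 cells in libraries 1 to 5). This was 0.613% ± 0.391 of CD45+ cells (SD, n = 5) and 15.7% ± 3.88 of myeloid cells, compared with 16.6% ± 8.18 and 28.8% ± 17.9 in the rejecting kidney (n = 2). With cells thinned to 1000 UMIs and shallower cells left out, the shares were 0.325% ± 0.238 and 11.5% ± 1.48 in the spleen and 13.5% ± 7.87 and 23.1% ± 16.1 in the kidney. The spleen is the tissue in which red pulp macrophages clear aged red cells and recycle their iron. Tissue, strain of the recipient, transplantation, preparation, and the way in which the tables were made cannot be told apart in this comparison. The kidney counts covered 32285 genes and the spleen counts 17644 of them, and kidney cells had at least 1001 UMIs whereas spleen cells had as few as 503. CPM in this comparison was taken over the shared genes. Of 5414 genes tested, 1312 were higher (24.2%) and 749 were lower (13.8%) in the kidney. TMM factors gave 1100 higher and 1032 lower and moved the median over all genes from 0.15 to -0.05. Without library 2, 1216 genes were called, without library 3, 1089, and after thinning, 368. When genes were split into 4 equal groups by genomic span (GENCODE annotation), a split chosen after seeing the data, 45.3% of the longest group were higher in the kidney, compared with 13.4% of the shortest group, and the part of gene span in these differences was not tested. Whether reads in introns were counted alike in both tissues is not given in the sources used here.

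Genes of the interferon gamma response were higher in the rejecting kidney. Of 18 genes, 17 were higher and none was lower, with a median of 3.47 compared with 0.15 over all genes. Leaving out each spleen library in turn left 16 of 17 to 18 of 19 called higher. Cxcl9 stood at 3156 and 5128 CPM in the kidney libraries and at 23.6, 125, 49.3, 0, and 83.9 CPM in the spleen libraries (6.37 ± 0.53). Iigp1 stood at 1136 and 1675 CPM against 4.11 to 115 CPM (4.85 ± 0.49), and Gbp2 at 769 and 1003 CPM against 35.4 to 135 CPM (3.74 ± 0.38). The groups did not overlap for any of these genes. The share of all tested genes without overlap is not given here, so the lack of overlap only describes the values. Cxcl10 was higher by 5.23. Gbp2b and Nos2, which encodes inducible nitric oxide synthase, had no UMI in the spleen, and from the limit of 3 counts over the group they were at least 329-fold and 18.6-fold higher in the kidney.

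Complement genes besides C1q, Fc receptors, and MHC genes followed in part. Of 11 complement genes, 5 were higher and 2 were lower, compared with 24.2% higher and 13.8% lower over all genes. C3, the central component, stood at 465 and 555 CPM in the kidney against 16.8 to 185 CPM in the spleen (2.62 ± 0.44), and Cfb at 293 and 509 CPM against 8.50 to 86.5 CPM (4.10 ± 0.48). C3ar1 stood at 179 and 175 CPM against 0 to 25.5 CPM (4.92 ± 0.58), whereas Cfp was lower (-0.96 ± 0.28). Of 6 Fc receptor genes, 4 were higher and none was lower, among them Fcgr4, which binds IgG2 (2.17 ± 0.28), and the inhibitory Fcgr2b (2.21 ± 0.35). MHC class II and costimulation genes were higher in 8 of 12 and lower in 1, with Cd74 at 14140 and 12859 CPM against 2795 to 10324 CPM (1.35 ± 0.35). Hypoxia and glycolysis genes were higher in 12 of 13, among them Hk2, a hexokinase (3.40 ± 0.34).

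Genes of iron and heme handling were lower in the kidney. Of 13 genes, 8 were lower and none was higher, with a median of -1.67. Slc40a1, the iron exporter ferroportin, stood at 41.7 and 3.24 CPM in the kidney and at 1089, 2490, 1027, 1971, and 1183 CPM in the spleen libraries (-6.06 ± 0.77). Spic, the transcription factor of red pulp macrophages, stood at 50.2 and 0.811 CPM against 210 to 817 CPM (-4.08 ± 0.83), and Hmox1, which degrades heme, at 191 and 180 CPM against 461 to 1422 CPM (-2.45 ± 0.39). Cd163, the receptor for hemoglobin and haptoglobin, had no UMI in the kidney and 83.9 to 212 CPM in the spleen, at least 345-fold more from the limit of 3 counts over the group, and for the integrin chain Itgad this value was 627. Trf, which encodes transferrin, was lower by -3.47. For Slc40a1, Spic, Hmox1, and Cd163 the values of the tissues did not overlap, which is a description only, for the reason given above. Red cell genes summed to 143843 CPM in members of spleen library 1, to 1699 to 14606 CPM in the other spleen libraries, and to 4.52 and 1.21 CPM in the kidney, and their part was not tested. Without spleen library 1, 16 of 17 interferon gamma genes were higher and 7 of 12 iron genes were lower. The neutrophil and S100 genes summed to 1003 to 21336 CPM, the T and NK cell genes to 135 to 1648 CPM, and the B cell genes to 394 to 830 CPM in the spleen members, and the part of such transcripts was not tested either.

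**Figure D5:**
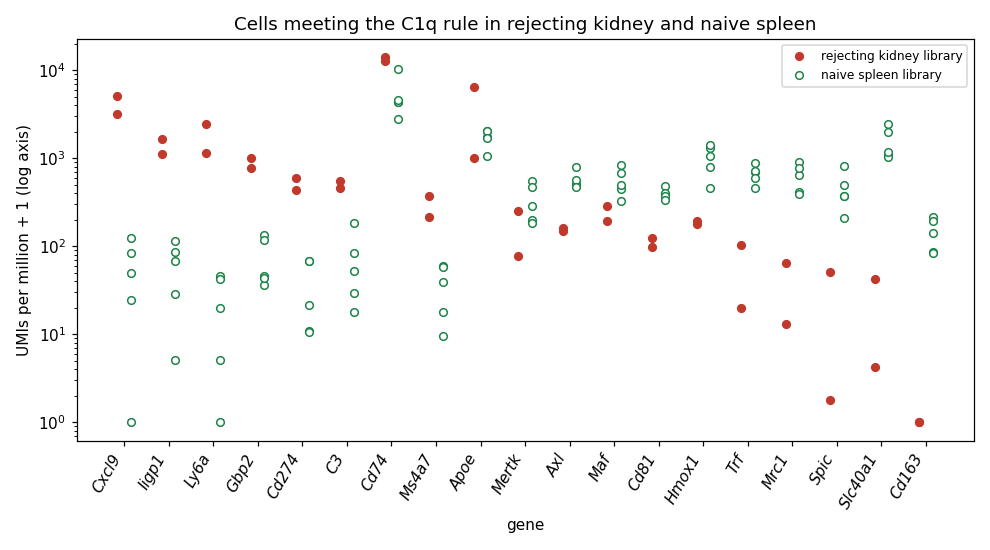
Levels of 19 genes (CPM plus 1, log axis) in cells meeting the C1q rule, in the 2 rejecting kidney libraries (filled) and the 5 naive spleen libraries (open). Cxcl9, Iigp1, and Gbp2 were higher and Slc40a1, Spic, and Cd163 lower in every kidney library than in any spleen library.

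Receptors for dying cells and the cell type markers differed in both directions. Of 12 genes of efferocytosis and scavenger receptors, 4 were higher and 4 were lower in the kidney, compared with 24.2% and 13.8% over all genes. Mrc1 stood at 64.6 and 12.2 CPM against 394 to 913 CPM (-4.00 ± 0.56) and Axl at 160 and 147 CPM against 478 to 788 CPM (-1.88 ± 0.29). Msr1, a scavenger receptor for modified lipoproteins, stood at 503 and 622 CPM against 0 to 41.1 CPM (4.97 ± 0.43), and Stab1 had no UMI in the spleen, at least 18.4-fold less than in the kidney. Mertk stood at 254 and 77.0 CPM against 185 to 548 CPM, and was not called (-0.98 ± 0.46, adjusted p = 0.10, edgeR). Ms4a7 was higher in the kidney, at 370 and 215 CPM against 8.50 to 59.0 CPM (2.78 ± 0.38), as was Trem2, at 135 and 99.7 CPM against 0 to 24.7 CPM (3.29 ± 0.47). Apoe, at 6537 and 1004 CPM in the kidney and 1074 to 2060 CPM in the spleen, overlapped between tissues and was not called (1.13 ± 0.44, adjusted p = 0.055). Without kidney library 2 its difference was -0.78. The largest rises among genes of at least 100 CPM included, besides Gbp2b and Gm15056, the genes Cmss1, Plxdc2, and Lrmda, at 9.20, 8.71, and 8.33. These 3 genes span 304865, 399536, and 1036374 bases and belong to the longest of the 4 groups by genomic span, to which the limit given above applies.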

How the data were processed

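Viable CD45+ cells were profiled with the 10x Chromium Next GEM 3′ kit. Per the submitters' processing notes, Cell Ranger and mm10 were used. The files that the authors deposited hold raw UMI counts for each gene and cell, without normalization, and the cell filters behind them are not given as numbers in the sources used here. Libraries were told apart by tags in the barcodes; the labels do not say that each tag is 1 mouse, although the paper's methods treat each mouse as a separate sample, and the labels carry no replicate numbers that pair libraries.

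UMIs were summed for each library and cell group, scaled by plain library totals, and tested with edgeR 4.0.16 (R 4.3.3; filterByExpr, quasi-likelihood test, Benjamini-Hochberg adjustment, threshold 0.05). Comparisons within the kidney had the library as a block, because both cell groups of a library were processed together, and kidney against spleen had none. DESeq2 1.42.0, TMM factors, no filter, no block, thinning to 1000 UMIs (seed 1), C1q minimums of 2 and 5 UMIs, limits on cells (200 to 7000 genes, 1000 to 40000 UMIs, mitochondrial share up to 10%), leaving out doublets, and leaving out each library were the alternatives. Scrublet's automatic threshold marked 1, 2, and 1 cells in kidney libraries 2 and 3 and spleen library 1, so it had not worked there, and the highest 5% of scores were left out instead, a choice made after seeing the data. Doublets stayed in the main results. Every script with a test across genes was tested on simulated counts.

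Genes named were the 12 with the highest and the 12 with the lowest fold among called genes of the same direction in both libraries, or with no overlap between kidney and spleen, and with at least 100 CPM, without mitochondrial, ribosomal, immunoglobulin, T cell receptor, and rule genes. Members of the lists of genes may also be named. The members, lists, and named list genes were chosen with earlier results of these data known. Sub-clusters used scanpy 1.11.5 and leidenalg 0.10.2, intervals scipy 1.17.1. Promoters are from RefSeq. Some genes are not reported here.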

Additional observations from a re-analysis of the deposited data

Results flagged for a closer look

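In the 5 naive spleen libraries, 10 of 54 values checked had a highest or lowest library whose gap to the next was more than 0.71 of the range over all 5, where chance gives about 1 in 20. The 10 values are not independent of each other, and some were set by the rule or by a single UMI. Their number can therefore not be weighed against that share. The 4 hemoglobin genes were highest in library 1, with Hba-a1 at 25940, Hba-a2 at 20320, Hbb-bs at 75060, and Hbb-bt at 21930 CPM among cells that met the C1q rule. In library 5, C1qa was lowest at 830.3 CPM, C1qc at 637.4 CPM, and Gfra2 at 67.09 CPM, and Cd74 was highest at 10320 CPM. C1qa and C1qc are genes of the rule, so their levels in these cells depend on the rule. Dab2 and Plxdc2 were each at 4.109 CPM in library 3 and at 0 in the other spleen libraries. Each of these rests on 1 UMI over all 5 spleen libraries, which fixes the gap and says nothing about library 3. No group of the rejecting kidney had enough libraries for this check.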

How the results depend on the processing

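Of the 181 gene differences counted here, 177 kept their direction and their side of the threshold with TMM factors, 181 with a C1q minimum of 2 UMIs, and 140 with DESeq2, where 41 were no longer called. After thinning, 127 kept both, 31 were no longer called, 1 was newly called, and 2 reversed. The rest of the 181 had no value after thinning, because their genes were not tested in that setting. With a C1q minimum of 5 UMIs 8 were no longer called. The number of genes called moved with the test. Against other myeloid cells (1702), DESeq2 called 550, the test without the library block 2, and thinned counts 934. Against Arg1-positive cells (153), these settings called 17, 1, and 35, and a C1q minimum of 5 UMIs called 100. Against monocytes (1948), they called 436, 83, and 725. Between kidney and spleen (2061), no filter gave 3479, thinning 368, leaving out a kidney library 1216 and 1089, and leaving out a spleen library 1647 to 2314. Without the block, 109 named differences within the kidney were no longer called and 23 kept their direction and their side of the threshold. The 23 include differences called in neither setting, such as Ms4a7 against Arg1-positive cells. Against Arg1-positive cells, Apoe reversed to 0.16 and Ms4a7 to 0.55 after thinning, and Ms4a7 to 0.12 without library 2 (-0.63 without library 3). Between kidney and spleen, Apoe reversed to -0.78 without library 2 (1.92 without library 3). The share of members was 10.9% to 22.4% of CD45+ cells and 16.2% to 41.5% of myeloid cells when either library was left out. Without thinning, C1qa, C1qb, C1qc, and Ms4a7 were detected in 94.2%, 92.5%, 90.9%, and 39.1% of members. Resolutions of 0.3 and 1.0 gave 3 and 10 sub-clusters. The members held 6234823 UMIs in the kidney but 1093099 in the spleen, and spleen libraries with 32 members show a gene of few UMIs only coarsely. The cause of these changes was not tested.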
